A study of Rattus norvegicus with 6 samples.

Results

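Glycolysis, glycogen turnover and pyruvate oxidation were followed in the heart through 44 listed genes, chosen by symbol from the deposited expression table. All 44 were found among its 32883 genes, and they cover 10 roles from glucose entry to the pyruvate dehydrogenase complex. Myocardial tissue came from 3 obesity-prone (OP) Sprague Dawley rats given high-fat food and from 3 obesity-resistant (OR) Sprague Dawley rats given standard food, each for 12 months, with 1 RNA-seq library per rat. OP and OR are lines bred from this strain for their propensity to become obese on a rich diet, and the OP rats are the study's model of metabolic syndrome and heart failure with preserved ejection fraction. Each line was sequenced on 1 diet, so line and diet cannot be told apart in any value below.

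The adult heart burns mostly fatty acids and takes part of its energy from glucose and lactate. Glucose enters through GLUT transporters, is trapped by hexokinase, and is either stored as glycogen or split by glycolysis, where phosphofructokinase sets the pace. The pyruvate formed is turned into lactate by lactate dehydrogenase, or enters mitochondria through the pyruvate carrier and is oxidised by the pyruvate dehydrogenase complex. That complex is switched off by the PDK kinases and on by the PDP phosphatases, and in a heart supplied with fat PDK4 is a known brake on glucose oxidation. Several steps have a pair of genes, 1 typical of striated muscle (Pfkm, Eno3, Pgam2, Pygm, Hk2, Slc2a4) and 1 found in most other tissues (Pfkl, Eno1, Pgam1, Pygb, Hk1, Slc2a1).

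Values are given in CPM (reads of a gene per 1000000 reads assigned to genes), which follow a gene between rats but do not compare genes, since longer transcripts yield more reads. Between 10838184 and 12831598 assigned reads were recovered per library, so that 1 read was worth 0.0779 to 0.0923 CPM. OP replicate 2 stood apart from the other libraries. The chi-square per gene between its recovered reads and those of other OP rats was 22.34 and 24.22, against 5.66 to 6.48 for the other pairs within a group, where counting noise alone gives 1. Its summed fibroblast markers reached 3905 CPM against 1985 to 2425 CPM elsewhere. Most of that sum was collagen, Col3a1 at 2075 CPM and Col1a1 at 883 CPM. The fibroblast markers Pdgfra, Dcn and Lum lay within the range of the other libraries. Its atrial markers summed to 2611 CPM against at most 1513 CPM, of which Nppa alone was 2265 CPM. The atrial markers Myl7, Myl4 and Sln lay within the range of the other libraries. Its summed endothelial markers were the lowest at 627 CPM. Cardiomyocyte markers, which define the labelled tissue, summed to 42694 to 46995 CPM in the 6 libraries, and adipocyte markers to 9.2 to 18.6 CPM, with Adipoq, Plin1, Cidec, Lep and Retn at 0 in at least 1 library. In bulk tissue, fewer cells of a type and less RNA per cell cannot be told apart.

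The promoters of 3 members are printed because these are the genes on which the comparison turned: Pfkl was the only member called across all rats, and Ldha and Hk2 were called once OP replicate 2 was left out. Each window runs from 250 to 61 bases before the start in RefSeq's table (assembly GRCr8, which is not the build of the expression table, so the coordinates do not carry over to it), 5′ to 3′ on the gene's strand. Capitals mark ACGTG on either strand, a form of the core of the hypoxia response element. The other form, GCGTG, was not searched or marked, and it occurs in the Pfkl window.
Pfkl: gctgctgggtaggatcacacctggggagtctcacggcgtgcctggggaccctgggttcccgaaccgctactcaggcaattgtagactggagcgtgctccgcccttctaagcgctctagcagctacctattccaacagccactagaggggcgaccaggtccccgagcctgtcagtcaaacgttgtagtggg
Ldha: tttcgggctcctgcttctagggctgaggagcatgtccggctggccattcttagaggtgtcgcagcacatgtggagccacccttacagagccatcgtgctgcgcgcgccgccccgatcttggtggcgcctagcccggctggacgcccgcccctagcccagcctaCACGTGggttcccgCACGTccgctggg
Hk2: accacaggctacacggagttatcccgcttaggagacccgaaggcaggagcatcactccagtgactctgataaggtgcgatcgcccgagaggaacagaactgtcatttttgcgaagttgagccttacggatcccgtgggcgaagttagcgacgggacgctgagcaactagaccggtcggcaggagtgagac
They lie at chr20:10663715-10663904 on the plus strand for Pfkl, chr1:106507842-106508031 on the plus strand for Ldha, and chr4:116841336-116841525 on the minus strand for Hk2. The Ldha window held 3 matches to ACGTG, at 87, 86 and 73 bases before the start, of which the first pair are the opposite strands of a single E-box (CACGTG), and the other windows held 0. A GC box (GGGCGG, either strand) was matched once in Pfkl and at 2 places in Ldha, and no CCAAT was found in any of the 3. Over the 39 members with a promoter entry, ACGTG was present in 12 (30.8%), against 12.5% of 33469 promoter windows of the same length. GGGCGG was present in 23 of the 39 (59%), against 22.5% of all windows. CCAAT was present in 17 (43.6%, against 27.4%) and CACGTG in 4 (10.3%, against 3.9%). Every motif searched was thus more frequent among members, and ACGTG does not stand out in that. The windows compared were all those of this length, not chosen by expression in heart or by base content. A member counted as a match if any window under its symbol held the motif, while the comparison share counts windows. These are letter matches only, and no factor's binding was measured.

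The question put to the data was which of these genes differed between hearts of high-fat diet-fed OP rats and those of OR rats. Of the 44 members, 42 reached 1 CPM in at least 3 libraries and were tested with limma on log2 values, with p adjusted over 13445 genes by the Benjamini-Hochberg method. Across all genes 3.37% were called at an adjusted p under 0.05, 1.5% higher and 1.87% lower in OP rats. Pfkl was the only member called, 1 of 42 or 2.38%, which is near the share over all genes. No member was called lower, either by limma's trend fit or by voom on the recovered reads, and 1 had an unadjusted p under 0.05 in that direction. The median member difference was 0.09 on the log2 scale, against 0.0 for all genes tested, and single differences ran from -0.61 to 0.87, 27 above and 15 below 0.

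At an unadjusted p under 0.05, 12 of 42 members stood apart (28.6%, against 22.3% of all genes). Of these, 11 stood higher in OP rats (26.2%, against 10.6% of all genes) and 1 stood lower (2.38%, against 11.7%). The 11 were Pfkl, Gpi, Aldoa, Aldoc, Pgk1, Pkm, Ldha, Pdhb, Pdk4, Gbe1 and Pgm1, and the 1 lower was Hk2. In CPM, the groups did not overlap for 12 members (28.6%, against 28.1% of all genes). The OP rats lay wholly above the OR rats for 10 members (23.8%, against 10.4% of all genes) and wholly below for 2, Hk2 and Pdk3 (4.76%, against 17.7%). After TMM scaling the counts were 13 above (31%, against 15.2%) and 2 below (4.76%, against 14.3%). The 13 took in Ldhb, Pgam2 and Phka1, whose groups overlapped in CPM. Where overlap is stated for a gene below, it is judged in CPM. The count of 11 changed when an OR rat was left out: it was 4 without OR replicate 2 (9.52%, against 7.9% of all genes), 4 without OR replicate 3 (9.52%, against 7.34%) and 9 without OR replicate 1 (21.4%, against 9.01%). Without rescaling of the libraries, 7 members kept an unadjusted p under 0.05 in the higher direction (16.7%, against 7.32% of all genes), and the median of all genes moved to -0.05. Reads of the 44 genes together made up 20633, 21498 and 21084 CPM in the OP rats and 20109, 19304 and 19704 CPM in the OR rats. These sums did not overlap between the groups, and they amount to 2.11% and 1.97% of all reads on average.

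**Figure D1:**
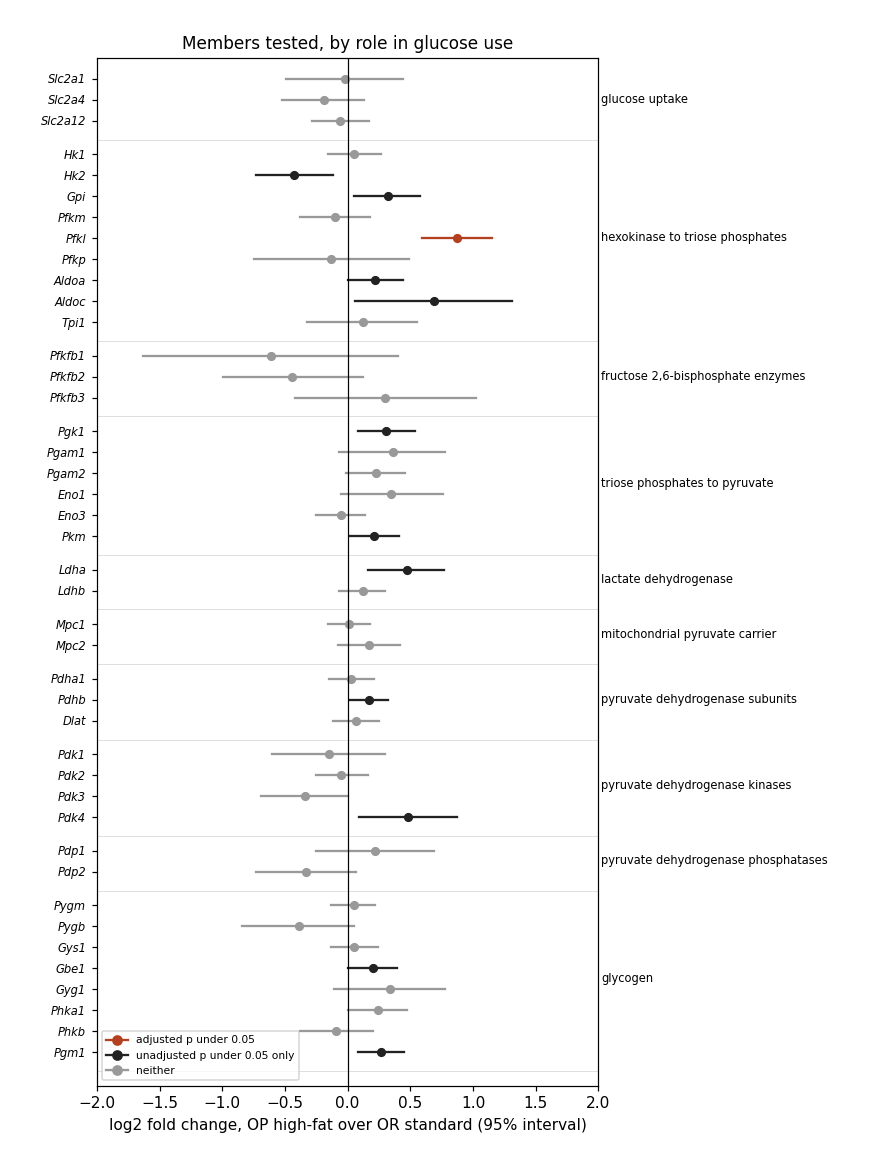
Points give the log2 fold change of OP high-fat over OR standard hearts for the 42 members tested, with bars for 95% intervals, ordered by role, and colour for the p-value class. Pfkl, at 0.87, is the only member in the adjusted class, and the 3 glucose transporters tested all lie below 0.

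Phosphofructokinase showed the only called difference. Pfkl (ENSRNOG00000001214) encodes the liver-type subunit of the enzyme that commits fructose 6-phosphate to glycolysis. In OP rats 1 to 3 it stood at 107, 140.8 and 113 CPM, and in OR rats at 71.5, 67.9 and 64.0 CPM. All OP rats lay above all OR rats, and OP replicate 2 was the highest of the 6. Pfkl rose by 0.87 ± 0.12 (SE) on the log2 scale, 1.82-fold with a 95% interval of 1.5 to 2.21, with an adjusted p of 0.0122 from limma. Leaving out OP replicate 2 gave 0.72, adjusted p 0.00212. Leaving out OR replicates 1, 2 or 3 ended the call, with differences of 0.91, 0.87 and 0.84 and adjusted p of 0.0676, 0.0712 and 0.0752, and in those fits only 57, 82 and 63 genes were called in all.

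Neither of the other subunit genes was called. Pfkm, the muscle-type subunit, stood at 1002, 759.9 and 1082 CPM in OP rats and at 1048, 961 and 1118 CPM in OR rats. These ranges overlapped, with OP replicate 2 the lowest of the 6. The Pfkm difference was -0.10 ± 0.12 on the log2 scale, and without OP replicate 2 it was 0.03. Pfkp, the platelet-type subunit, ranged from 32.7 to 73.2 CPM in OP rats, with its highest value in replicate 2, and from 48.5 to 59.6 CPM in OR rats. Reads of Pfkl made up 11% ± 3.01 (SD, n = 3) of the reads of these 3 genes in OP rats and 5.85% ± 0.574 in OR rats, a share of reads and not of molecules.

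The log2 ratio of Pfkl to Pfkm within a library, which no scaling can move, was -3.23, -2.43 and -3.26 in OP rats and -3.87, -3.82 and -4.12 in OR rats. OP rats were above OR rats without overlap, by 0.97 on the log2 scale or 1.95-fold. With OP replicate 2 left out the gap was 0.70. The exact permutation test over 3 rats against 3 gave p = 0.1, the smallest it can reach, and 0.2 after adjustment over the 10 pairs compared.

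**Figure D2:**
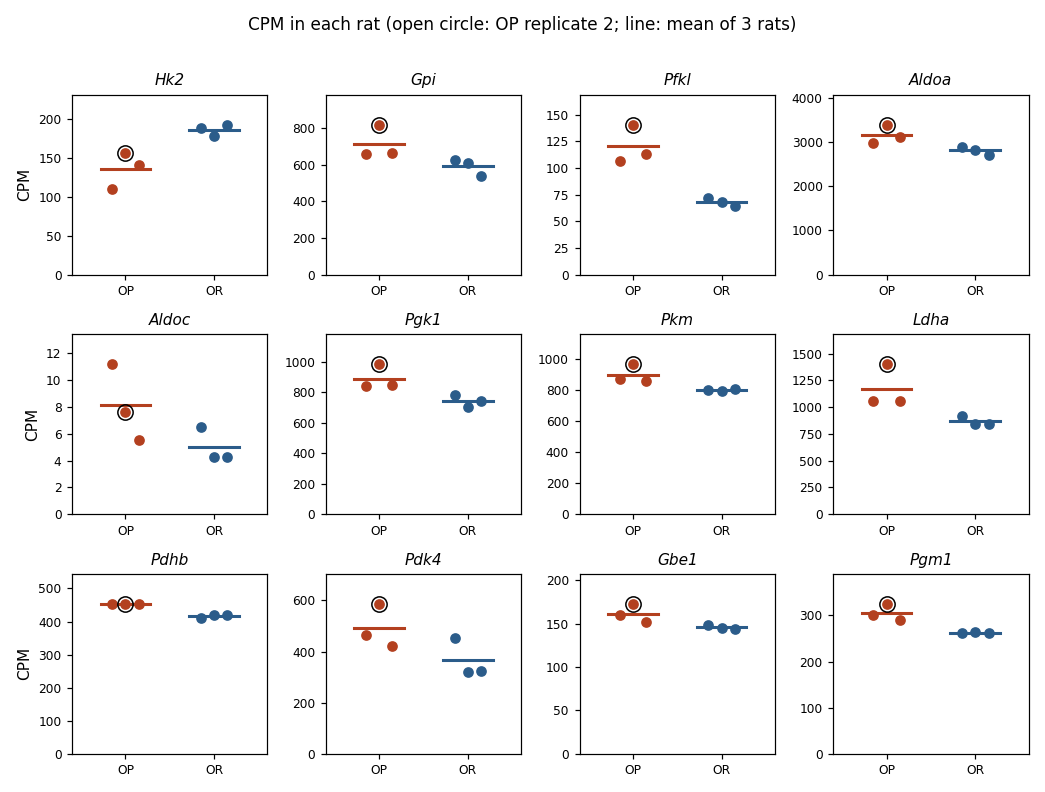
CPM in each rat is drawn for the 12 members with an unadjusted p under 0.05 (vertical axes from 0, horizontal lines for the mean of 3 rats, an open circle around OP replicate 2). For Pfkl 107 CPM is the lowest OP value and 71.5 CPM the highest OR value, and the groups overlap for Aldoc and Pdk4.

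No glucose transporter was called, and none had an unadjusted p under 0.05 in limma. Slc2a4 encodes GLUT4, the transporter that insulin and contraction bring to the surface, and it stood at 554, 417 and 597 CPM in OP rats and at 681, 516 and 653 CPM in OR rats. The groups overlapped, OP replicate 2 was the lowest, and the difference was -0.19 ± 0.14 on the log2 scale. Slc2a1 encodes the basal transporter GLUT1 and stood at 20.6, 34.2 and 20.8 CPM in OP rats against 25.0, 26.2 and 26.0 CPM in OR rats. OP replicate 2 was above all OR rats and the other OP rats were below them, so that the difference of -0.02 became -0.28 without that library, at an adjusted p of 0.122. Slc2a12 (GLUT12) lay between 22.3 and 27.5 CPM in all 6 rats. Slc2a3, the neuronal transporter GLUT3, was at 0.2 to 0.95 CPM and was not tested.

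Hexokinase Hk2 was the member with the smallest p on the lower side. It encodes the muscle isoform that insulin induces, and stood at 109.7, 156 and 140.4 CPM in OP rats and at 188, 179 and 193 CPM in OR rats. All OP rats lay below all OR rats. The difference was -0.43 ± 0.13 on the log2 scale, at an adjusted p of 0.12 in limma. It was -0.56 at an adjusted p of 0.0183 without OP replicate 2, whose value is the closest of the OP rats to the OR group. With any other library left out Hk2 was not called, at adjusted p from 0.183 to 0.349 in limma. Hk1, the isoform of most tissues, stood at 229.8, 262 and 230.3 CPM in OP rats and at 229.9, 258 and 233 CPM in OR rats. Its groups overlapped, with a difference of 0.05 that turned to -0.03 without OP replicate 2. Within libraries the log2 ratio of Hk1 to Hk2 was 1.07, 0.74 and 0.71 in OP rats and 0.29, 0.53 and 0.27 in OR rats. That ratio was higher in every OP rat, by 0.48 on average and by 0.53 without OP replicate 2 (exact p = 0.1).

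Between glucose 6-phosphate and the triose phosphates, 3 further genes had an unadjusted p under 0.05 in limma (22.3% of all genes did). Gpi, the isomerase that precedes phosphofructokinase, stood at 658, 818 and 666 CPM in OP rats and at 624, 608 and 540.2 CPM in OR rats. Aldoa, the muscle aldolase that splits the hexose, stood at 2983, 3398 and 3116 CPM in OP rats and at 2897, 2823 and 2714 CPM in OR rats. In both genes every OP rat was above every OR rat, by 0.32 ± 0.12 and 0.22 ± 0.10 on the log2 scale, with adjusted p of 0.16 and 0.224. Aldoc, the brain aldolase, was low at 11.2, 7.6 and 5.55 CPM in OP rats and 6.5, 4.3 and 4.3 CPM in OR rats. Its groups overlapped, since OR replicate 1 exceeded OP replicate 3. The Aldoc difference was 0.69 ± 0.27 (adjusted p 0.189). Tpi1, which interconverts the triose phosphates, was at 2.45 to 3.4 CPM in all rats, a low value that stands beside 5 loci named as its copies in RefSeq. The sources used here do not say how reads shared between such copies were counted, and their part in the Tpi1 value was not tested.

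The bifunctional PFKFB enzymes make and remove fructose 2,6-bisphosphate, the strongest activator of phosphofructokinase. Pfkfb1, Pfkfb2 and Pfkfb3 differed by -0.61 ± 0.44, -0.44 ± 0.24 and 0.30 ± 0.31 on the log2 scale, and their groups overlapped. Pfkfb2, the heart isoform, ranged from 35.2 to 50.9 CPM in OP rats and from 45.4 to 83.2 CPM in OR rats. Pfkfb3 spanned 30.1 to 55.5 CPM and 25.3 to 57.4 CPM. The intervals of these genes were among the widest of all members, and Pfkfb4, at 0.3 to 0.75 CPM, was not tested.

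Of the 6 genes from the triose phosphates to pyruvate, 0 were called and 2 stood higher at an unadjusted p under 0.05 in limma (10.6% of all genes did). Their median difference was 0.27 on the log2 scale (0.0 for all genes tested), and 0.14 without OP replicate 2. Pgk1, which makes the first ATP of the pathway, stood at 839, 984 and 844 CPM in OP rats and at 779, 705 and 742 CPM in OR rats. Pkm, the muscle pyruvate kinase gene, stood at 872, 967 and 859 CPM in OP rats and at 803, 797 and 806 CPM in OR rats. In neither gene did the groups overlap, and the differences were 0.31 ± 0.10 and 0.21 ± 0.09, with adjusted p of 0.128 and 0.195. Pgam2, the muscle phosphoglycerate mutase, ranged from 703 to 865 CPM in OP rats and from 623 to 751 CPM in OR rats. Its partner Pgam1 ranged from 313 to 533 CPM and from 309.8 to 367 CPM. Their differences of 0.23 ± 0.10 and 0.36 ± 0.19 had overlapping groups in CPM, though those of Pgam2 did not overlap after TMM scaling.

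Enolase, the next step, depended on a single rat. Eno1, the form of most tissues, stood at 624, 959.95 and 619.9 CPM in OP rats and at 607, 592 and 549.95 CPM in OR rats. The OP rats were above the OR rats, but OP replicates 1 and 3 only narrowly, and the difference of 0.35 ± 0.18 shrank to 0.12 without OP replicate 2. Eno3, the muscle form, stood at 532, 434 and 499 CPM in OP rats and at 553, 522 and 495 CPM in OR rats, which overlap. The log2 ratio of Eno1 to Eno3 was 0.23, 1.14 and 0.31 in OP rats against 0.14, 0.18 and 0.15 in OR rats. The higher ratio in OP rats, 0.41 on average, was 0.12 without OP replicate 2.

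Lactate dehydrogenase tetramers mix an A subunit, typical of glycolytic tissue, with a B subunit, typical of the heart. Ldha stood at 1054, 1402 and 1057 CPM in OP rats and at 918, 843 and 845 CPM in OR rats. No OP rat fell within the OR range, and OP replicate 2 was again the highest. The difference was 0.47 ± 0.13 on the log2 scale, 1.38-fold with a 95% interval of 1.12 to 1.71, and its adjusted p was 0.0971 in limma. Without OP replicate 2 the difference was smaller, 0.31, but the spread was smaller too, and the adjusted p was 0.0252. With any other library left out Ldha was not called, at adjusted p from 0.0963 to 0.267 in limma. Ldhb stood at 3200, 3032 and 3199 CPM in OP rats and at 3061, 2960.3 and 2986 CPM in OR rats, overlapping slightly, with a difference of 0.12 ± 0.08.

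Reads of Ldha were 27.1% ± 3.93 (SD, n = 3) of the reads of both subunits in OP rats and 22.4% ± 0.549 in OR rats. The log2 ratio of Ldha to Ldhb was -1.60, -1.11 and -1.60 in OP rats and -1.74, -1.81 and -1.82 in OR rats. Each OP rat had the higher ratio, by 0.35 on average (exact p = 0.1) and by 0.19 without OP replicate 2. RefSeq names 31 copies of Ldha, 30 of them pseudogenes, and 13 of the 44 members have 128 such copies in all, Eno1, Pkm, Pgam1, Pgk1 and Aldoa among them. The values of these genes are uncertain to the extent that reads were shared with copies.

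**Figure D3:**
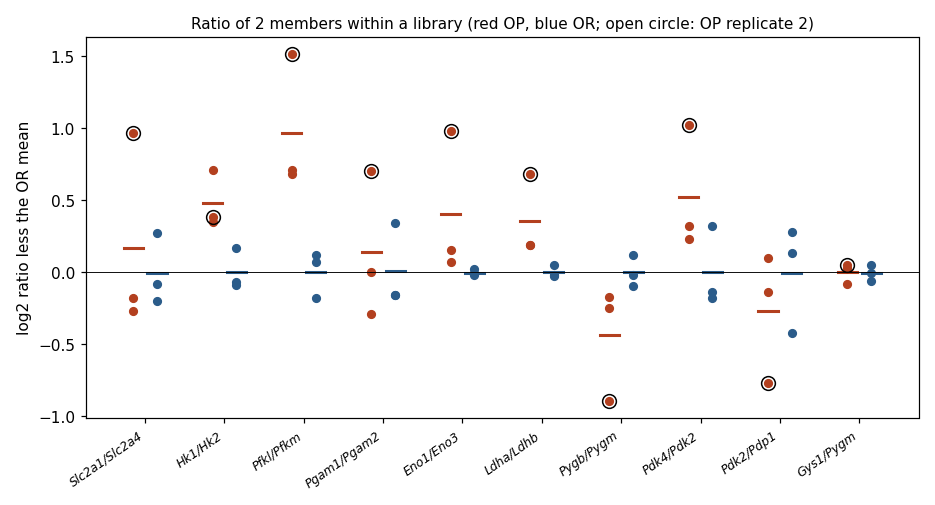
For 10 pairs of members, the log2 ratio within each library is drawn less the mean of the OR rats (red OP, blue OR, short lines for group means, an open circle around OP replicate 2). The groups do not overlap for 5 pairs, each with p = 0.1 in the exact permutation test and 0.2 after adjustment. No such share was computed for pairs of other genes. The Pfkl to Pfkm gap of 0.97 is the widest of the 10.

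Neither gene of the pyruvate carrier was called. Mpc1 and Mpc2, which together form it, differed by 0.01 ± 0.07 and 0.17 ± 0.11 on the log2 scale, and the 2 genes together summed to 623, 655 and 632 CPM in OP rats and 644, 596 and 662 CPM in OR rats. The OP sums lay within the range of the OR sums. The 95% interval of the fold was 0.895 to 1.14 for Mpc1 and 0.944 to 1.33 for Mpc2.

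Among the subunits of the pyruvate dehydrogenase complex, Pdhb encodes the beta subunit of the decarboxylase. It stood at 454, 452 and 453 CPM in OP rats and at 411, 419.6 and 419 CPM in OR rats. The 3 OP values were within 2 CPM of each other and all above the OR rats, but the difference was small, 0.17 ± 0.07 on the log2 scale or 1.13-fold, at an adjusted p of 0.185. Pdha1, the catalytic alpha subunit, and Dlat, the acetyltransferase core, differed by 0.03 ± 0.08 and 0.07 ± 0.08, and their fold intervals of 0.9 to 1.15 and 0.919 to 1.19 lay within 1.5-fold both ways.

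The kinases that switch the complex off had differences of unlike sign, and 0 of 4 were called. At an unadjusted p under 0.05 in limma there was 1 (22.3% of all genes reached it). Pdk4, the kinase induced by fasting and by fatty acids, stood at 465, 587 and 421 CPM in OP rats and at 453, 321 and 324 CPM in OR rats. OP replicate 3 lay below OR replicate 1, so the groups overlapped. The difference was 0.48 ± 0.17 on the log2 scale, 1.39-fold with an interval of 1.06 to 1.83, at an adjusted p of 0.158, and it was 0.32 without OP replicate 2. Pdk2, the other main kinase of the heart, stood at 460.0, 359 and 444 CPM in OP rats and at 449, 452 and 444 CPM in OR rats. OP replicate 2 was the lowest and OP replicate 1 the highest, and the difference was -0.05 ± 0.09. The log2 ratio of Pdk4 to Pdk2 was 0.01, 0.71 and -0.08 in OP rats and 0.01, -0.49 and -0.45 in OR rats, which overlap (exact p = 0.2).

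Pdk3, a rare isoform in these hearts at 3.65 to 4.0 CPM in OP rats and 4.55 to 5.4 CPM in OR rats, did not overlap between the groups, with a difference of -0.34 ± 0.15 and an adjusted p of 0.226. Pdk1, a hypoxia-induced kinase, ranged from 159.8 to 302 CPM in OP rats and from 260.1 to 282 CPM in OR rats. Its lowest value was OP replicate 2, and the difference of -0.15 became 0.11 without that rat. Of the phosphatases that switch the complex on, Pdp1 differed by 0.22 ± 0.21 and Pdp2 by -0.33 ± 0.17, with overlapping groups. The log2 ratio of Pdk2 to Pdp1 differed by -0.26 with all rats and by -0.02 without OP replicate 2.

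Of 8 glycogen genes 0 were called, and 2 had an unadjusted p under 0.05 in limma, as did 22.3% of all genes. Their median difference was 0.12, or 0.07 without OP replicate 2, against 0.0 for all genes tested. Pgm1, which links glucose 6-phosphate to glucose 1-phosphate on the way into and out of glycogen, stood at 300.8, 325 and 291 CPM in OP rats and at 261, 263 and 262 CPM in OR rats. Gbe1, the branching enzyme, stood at 160.4, 173 and 152 CPM in OP rats and at 149, 145 and 144 CPM in OR rats. For both, the OP rats lay above the OR rats, by 0.27 ± 0.08 and 0.20 ± 0.08 on the log2 scale, with adjusted p of 0.111 and 0.222. Gys1, the muscle glycogen synthase, lay between 247 and 281 CPM in all 6 rats, and its fold interval was 0.911 to 1.18.

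Pygm, the muscle glycogen phosphorylase, stood at 1644, 1539 and 1726 CPM in OP rats and at 1597, 1644 and 1679.5 CPM in OR rats. It overlapped, with a difference of 0.05 ± 0.08. Pygb, the brain form that the heart also carries, stood at 383, 229.8 and 426 CPM in OP rats and at 438, 425 and 507 CPM in OR rats. OP replicate 2 was far below the rest, and the difference of -0.39 ± 0.20 was -0.15 without it. The log2 ratio of Pygb to Pygm was -2.10, -2.74 and -2.02 in OP rats and -1.87, -1.95 and -1.73 in OR rats. It was lower in every OP rat, by -0.44 on average (exact p = 0.1) and by -0.21 without OP replicate 2. The log2 ratio of Gys1 to Pygm differed by 0.01 (exact p = 0.9). Gyg1, the glycogenin primer, and the phosphorylase kinase subunits Phka1 and Phkb differed by 0.34 ± 0.19, 0.24 ± 0.10 and -0.09 ± 0.13. Their groups overlapped in CPM, though those of Phka1 did not after TMM scaling.

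OP replicate 2 carried much of the spread. It held the highest CPM of the 6 libraries in 17 of 42 members (40.5%, against 19.5% of all genes) and the lowest in 13 (31%, against 35.9%). After TMM scaling it was the highest in 20 (47.6%, against 27%) and the lowest in 10 (23.8%, against 27.7%). The genes where it was highest included Slc2a1, Hk1, Pfkl, Pgam1, Eno1 and Gyg1, and those where it was lowest included Slc2a4, Pfkm, Eno3, Pdk2, Pygb and Phkb. The median SD of a member's log2 value after TMM scaling was 0.209 over the 3 OP rats, 0.096 over the OR rats and 0.058 over the OP rats without replicate 2, against 0.17, 0.124 and 0.1 for all genes. Collagen Col1a1 was 883 CPM in this library and 269 to 311 CPM elsewhere, and atrial Nppa was 2265 CPM against 465 to 1220 CPM. The other fibroblast and atrial markers listed lay within the range of the other libraries. Whether this library held more of other cells, and with what part in its member values, was not tested.

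Without OP replicate 2, 3 of 42 members were called, Pfkl and Ldha higher and Hk2 lower, when 5.82% of all genes were called, 2.84% higher and 2.98% lower. The median member difference was then 0.06. Over all rats, 38 of 42 members had a 95% interval within 2-fold both ways, and 25 within 1.5-fold, so that for these 25 a larger difference was outside the interval. The 4 members whose interval reached past 2-fold were Pfkfb1, Pfkl, Aldoc and Pfkfb3.

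**Figure D4:**
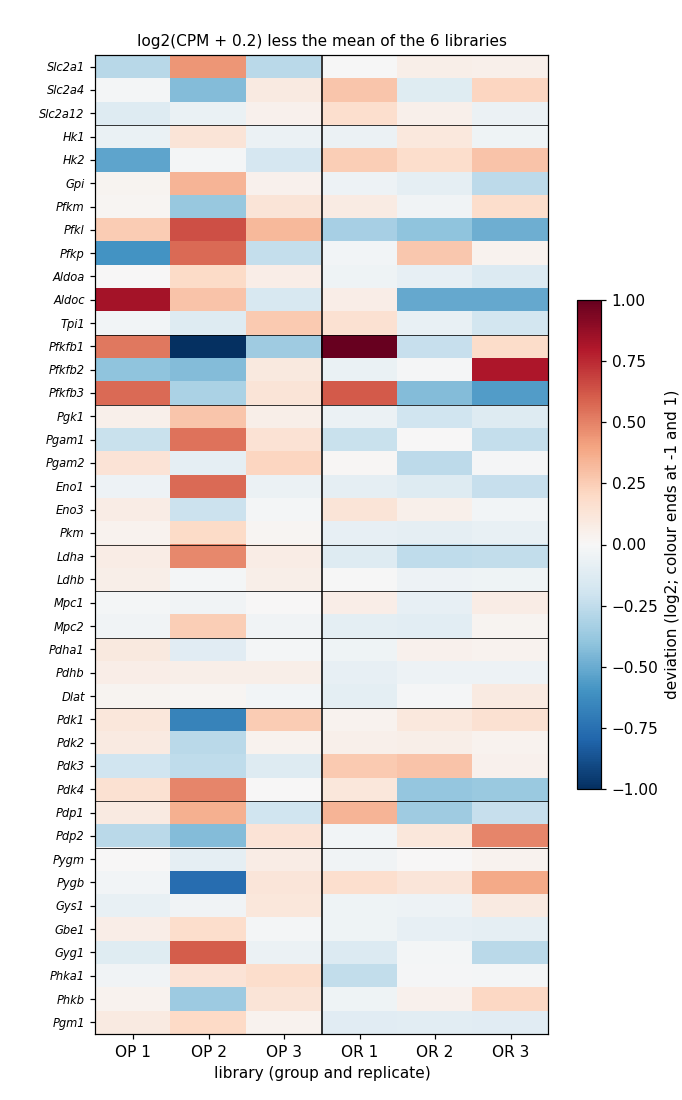
Each cell shows how far a member (rows, ordered by role) in a library (columns) lies from its mean over the 6 libraries, in log2 of CPM plus 0.2, red above and blue below. OP replicate 2 holds the highest of the 6 values in 17 rows and the lowest in 13, and Pfkl is red in all OP and blue in all OR libraries.

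Beyond the members, 97 other genes of glucose use were listed, of which 89 were found in the table and 82 were tested. Of these, 3 were called, 3.66% against 3.37% of all genes, and all 3 were lower in OP rats, when 1.87% of all genes were called lower. None of the 82 was called higher by limma or by voom. At an unadjusted p under 0.05, 12 stood higher (14.6%, against 10.6% of all genes) and 6 lower (7.32%, against 11.7%). Ppargc1a, the coactivator that drives mitochondrial biogenesis, stood at 39.4, 34.5 and 43.2 CPM in OP rats and at 51.9, 59.2 and 66.3 CPM in OR rats, a difference of -0.55 ± 0.12 with an adjusted p of 0.0477. Ppara, the fatty acid sensor that induces Pdk4 in heart, stood at 30.2, 30.2 and 34.8 CPM in OP rats and at 41.6, 49.1 and 54.1 CPM in OR rats, a difference of -0.55 ± 0.12 with an adjusted p of 0.0489. Every OP rat was below every OR rat for both genes. Pdk4 itself stood higher on average in OP rats, but its groups overlapped and it was not called (adjusted p 0.158 in limma). A link between Ppara and Pdk4 in these hearts was not tested. Gnpnat1, an acetyltransferase of the hexosamine side branch, stood at 8.1, 8.9 and 9.9 CPM against 14.4, 14.4 and 17.2 CPM, a difference of -0.71 ± 0.14 with an adjusted p of 0.0357.

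These 3 calls were close to the threshold and rested on the whole set of rats. Leaving out OP replicate 1, OP replicate 3 or any OR rat ended all of them, with adjusted p from 0.0607 to 0.197, while without OP replicate 2 all 3 stayed called. The 8 genes next by p were Epas1, Gpd1, Sord, Bsg, Pparg and Pck1 on the higher side and Klf15 and Phkg1 on the lower side. Epas1, which encodes the hypoxia factor HIF-2 alpha, stood at 836, 643 and 752 CPM in OP rats and at 582, 539.6 and 586 CPM in OR rats. It was higher in each OP rat, by 0.43 ± 0.10 with an adjusted p of 0.0561, and by 0.51 with an adjusted p of 0.00923 without OP replicate 2. Bsg, the chaperone of the lactate transporters, Sord, which makes fructose from sorbitol, and Gpd1, the cytosolic glycerol phosphate dehydrogenase, differed by 0.30, 0.39 and 0.35 with adjusted p of 0.0737, 0.0699 and 0.0646. Klf15, a regulator that raises Slc2a4 in muscle, differed by -0.48, and Phkg1, the catalytic subunit of muscle phosphorylase kinase, by -0.62, with adjusted p of 0.105 and 0.119.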

How the data were processed

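RNA-seq was performed on myocardial tissue of 6 rats, 3 per group, and all libraries were used, grouped by the line and diet on their labels. The authors trimmed reads with Trimmomatic, mapped them to Rnor_6.0 with STAR and counted reads per gene with HTSeq. The deposited values are a score: within each library, the authors rescaled the reads of every gene to a fixed total of 20000000 and rounded up, so they are not raw counts. The sources used here do not state how multi-mapped reads or strand were treated.

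CPM is the deposited score divided by 20. Assigned reads were recovered from the steps between the values in Python 3.11.15 (99.75% to 99.88% of values came out whole), and 3 reads correspond to 0.234 to 0.277 CPM. Genes with at least 1 CPM in 3 libraries were kept. Their scores were rescaled by TMM (30% trimmed from the ratios and 5% from the levels) and log2-transformed after adding 4, equal to 0.2 CPM. Group was the only term in limma 3.58.1 (R 4.3.3), with a trend of variance on the mean. Two-sided p-values were adjusted over all genes tested, and fold changes are on this log2 scale, which understates changes of low genes. The fit was tested on simulated data, with the same noise level in every library and no library made to stand apart. That test does not cover a library such as OP replicate 2. Ratios of paired members were compared by two-sided exact permutation tests. The p-values set a group difference against the spread between these rats, and limma draws part of that variance from the other genes tested.

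Values were given per rat for members called, for those with an unadjusted p under 0.05 and for pairs described, and for other glucose genes the called ones and the 8 next by p were named. The members and lists were chosen with earlier results of these data known. Alternatives covered scaling, filters, pseudocounts, variances, voom, a replicate block and leaving out each library. Promoters were matched by symbol in RefSeq (GRCr8), and 39 of 44 members were found.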

Additional observations from a re-analysis of the deposited data

How the results depend on the processing

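The 3 replicates of each group came from different rats, and the deviations of same-numbered rats correlated at 0.059, 0.075 and 0.127, so the numbers were not taken as pairs. With the replicate block, 269 genes were called in place of 453, Pfkl stayed called, and 1 of the other glucose genes was called in place of 3 (Ppara). Under the block the members with an unadjusted p under 0.05 were 12 on the higher side and 6 on the lower side, in place of 11 and 1. OP replicate 1 correlated better with OR replicate 3 (0.079) than with its own number. That count of other glucose genes was also 1 with no filter and with voom (Gnpnat1 in both). Leaving out each library gave 57 to 775 genes called, 0 to 3 members called and 0 to 9 other glucose genes called. The call of Pfkl held under all alternatives other than leaving out an OR rat. Among 630 alternative values of members, 608 kept their direction and their side of the threshold 3 lost a call (Pfkl), 2 gained one (Hk2 and Ldha without OP replicate 2) and 17 in 12 genes changed sign. With no rescaling these were Mpc1 (-0.04), Pdha1 (-0.02) and Pygm (-0.00). The others came from leaving out a library, where the log2 fold changes ran from -0.28 to 0.12 for Slc2a1, -0.10 to 0.01 for Slc2a12, -0.03 to 0.11 for Hk1, -0.18 to 0.03 for Pfkm, -0.48 to 0.12 for Pfkp, -0.11 to 0.01 for Eno3, -0.03 to 0.06 for Mpc1, -0.02 to 0.06 for Pdha1, -0.30 to 0.11 for Pdk1, -0.11 to 0.04 for Pdk2 and -0.16 to 0.04 for Phkb. The cause was not tested. An edgeR fit on the recovered reads was planned and was not run, since the deposited values are rounded. With 3 rats per group the exact test cannot go below 0.1, and line and diet cannot be told apart.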
